A study of Mus musculus with 10 samples.

Results

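The Myc, Max and Mlx network was followed through 10 genes, namely Myc, Mycn, Mycl, Max, Mxd1, Mxd3, Mxd4, Mnt, Mlx and Mlxip. They were taken by symbol from the 21853 gene rows of each table, irrespective of their values, and all 10 were among the 12060 genes tested. RNA had been sequenced from 5 lines of mouse embryonic stem cells (ESCs), with 2 libraries per line. Naïve ESCs were wild-type J1 cells, a standard mouse ESC line, grown with serum, LIF, 1 μM PD0325901 (a MEK inhibitor) and 3 μM CHIR99021 (a GSK3 inhibitor). AKO was a knockout of Prkaa1, which encodes a catalytic subunit of AMPK, the energy-sensing kinase. GKO lacked GYS1, the muscle-type glycogen synthase, and DKO carried both knockouts. These 3 lines were derived from J1 and their records describe the same medium, so that their comparisons with naïve ESCs were made under both inhibitors. Primed ESCs (PJ1) were wild type and grown with 10 ng/ml bFgf, 20 ng/ml Activin and serum replacement, without LIF or the inhibitors, so line and medium cannot be told apart in that comparison. GKO had been made with a guide against exon 9 of Gys1 and single colonies were picked, while AKO came from commercial CRISPR plasmids and sorting of RFP-positive cells, with targeted clones then used as knockouts. Which clone or clones each library came from, and whether DKO was made from GKO, is not given in the sources used here. A difference between lines can therefore also be a difference between clones.

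MYC, MYCN and MYCL are basic helix-loop-helix leucine zipper proteins that bind the E-box CACGTG as dimers with MAX and activate genes of ribosome production, nucleotide synthesis and growth. The MXD proteins and MNT compete for MAX on the same sites and recruit SIN3 corepressors. MLX is the parallel partner of MLXIP (MondoA), which responds to glucose 6-phosphate, the precursor of glycogen. In ESCs, Myc lies downstream of LIF signalling, GSK3 marks MYC for degradation, and MAX also works with MGA in the Polycomb complex PRC1.6, which keeps germline genes silent.

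The E-box is shown for the members whose own promoter holds one, since these genes encode the proteins that bind it. RefSeq promoter windows (GRCm38.p6, 250 bases before to 50 after the start site) were found for 9 of the 10 members, all but Myc. The letters CACGTG, which read the same on both strands, occurred in 4 of these 9 windows, against 7.15% of all 32851 windows and 12.1% of the 9504 tested symbols with a window. The 4 stretches are given 5′ to 3′ on the strand of the gene, with the E-box in capitals. They lie at chr12:76962246-76962275 (minus strand, Max), chr11:101087223-101087282 (plus, Mlx), chr11:74830774-74830833 (plus, Mnt) and chr5:34187897-34187956 (minus, Mxd4).
Max: ctaccccggcgcggtgagcccggtCACGTG
Mlx: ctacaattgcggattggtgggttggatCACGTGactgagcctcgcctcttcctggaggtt
Mnt: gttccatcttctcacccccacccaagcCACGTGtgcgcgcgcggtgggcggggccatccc
Mxd4: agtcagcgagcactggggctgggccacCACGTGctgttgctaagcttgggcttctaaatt
The first base of the E-box was 3 bases before the start site in Max, 40 in Mlx, 123 in Mnt and 219 in Mxd4. The windows of Mycn, Mycl, Mxd1, Mxd3 and Mlxip held none of these letters, which says nothing of E-boxes elsewhere. In the data below, Mlx and Mnt were lower in GKO than in naïve ESCs, whereas Max and Mxd4 did not pass the test there.

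Levels are in TPM, the length-corrected share of all transcripts in a library, as estimated by RSEM. TPM gives no read depth, so no counting interval could be given. The rows held between 500162 and 578952 TPM per library, lowest in primed ESCs, and between 10537 and 11113 genes reached 1 TPM. All 6 ESC markers reached 1 TPM in every line. They summed to 1870 to 2123 TPM in the naïve, AKO, DKO and GKO libraries and to 1034 and 1171 in primed ESCs. The 6 naïve markers summed to 950 to 1116 TPM in the naïve, AKO, DKO and GKO libraries and to 2.34 and 3.66 TPM in primed ESCs. The 6 primed markers summed to 42.5 to 64.1 TPM in the former and to 308 and 332 in primed ESCs. Of these, Dusp6 was lower in primed than in naïve ESCs (mean 5.73 against 14.5 TPM), and Fgf5 differed between the primed libraries (0.447 and 10.7). Prkaa1 mRNA stood at 15.5 and 16.6 TPM in naïve ESCs, 7.24 and 6.94 in AKO and 2.30 and 2.03 in DKO. Prkaa2, which encodes the other catalytic subunit of AMPK, stood at 2.385 and 2.413 TPM in naïve ESCs. It was still at 2.705 and 2.435 in AKO and 3.29 and 3.10 in DKO. Gys1 mRNA was still at 9.70 and 9.98 TPM in GKO and at 12.1 and 11.7 in DKO, against 11.5 and 10.8 in naïve ESCs. The 6 fibroblast markers summed to 2.76 and 3.33 TPM in naïve ESCs, 7.97 and 9.26 in GKO, with 9.41 and 16.0 in primed ESCs. In GKO most of this sum was Thy1 (mean 7.81 against 2.72 TPM in naïve ESCs), with Col1a1 at 0.732 against 0.247 and Postn at 0 in both lines, and in primed ESCs Thy1 (5.36), Col1a2 (4.51) and Col1a1 (1.78) made it up. The 5 primitive endoderm markers summed to 0.802 and 1.15 TPM in naïve ESCs, 1.89 and 1.90 in GKO, with 0.775 and 7.04 in primed ESCs. The 6 trophectoderm markers summed to 32.2 and 32.2 TPM in naïve ESCs, 37.3 and 38.8 in DKO and 41.0 and 41.4 in GKO, and to 21.2 and 38.8 in primed ESCs. They did not move together in GKO. Cdx2 (mean 6.94 against 2.62 TPM in naïve ESCs), Krt8 (12.6 against 6.91) and Krt18 (4.17 against 1.80) were higher. Eomes (17.3 against 20.1) and Gata3 (0.0745 against 0.77) were lower, and Elf5 was near 0 in both lines. The part of all these markers in the changes of the members was not tested.

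In naïve ESCs the network was led by Mycn (mean 58.4 TPM), the obligate partner Max (46.9) and Myc (43.5), followed by Mlx (32.6), Mnt (13.9), Mlxip (8.41), Mycl (5.88), Mxd3 (4.85), Mxd1 (2.07) and Mxd4 (0.75). The libraries of Max and Myc overlapped in naïve ESCs, and so did no other neighbours in this order. In GKO, Max (45.9 TPM) stood above Mycn (43.3). In primed ESCs, Mycn was at 94.4 TPM, and Mlx (37.6) and Mnt (25.5) stood above Myc (16.3). Mycn, Max and Myc thus made the upper end in the 4 lines on the naïve medium, and Mxd4 the lower end.

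**Figure D1:**
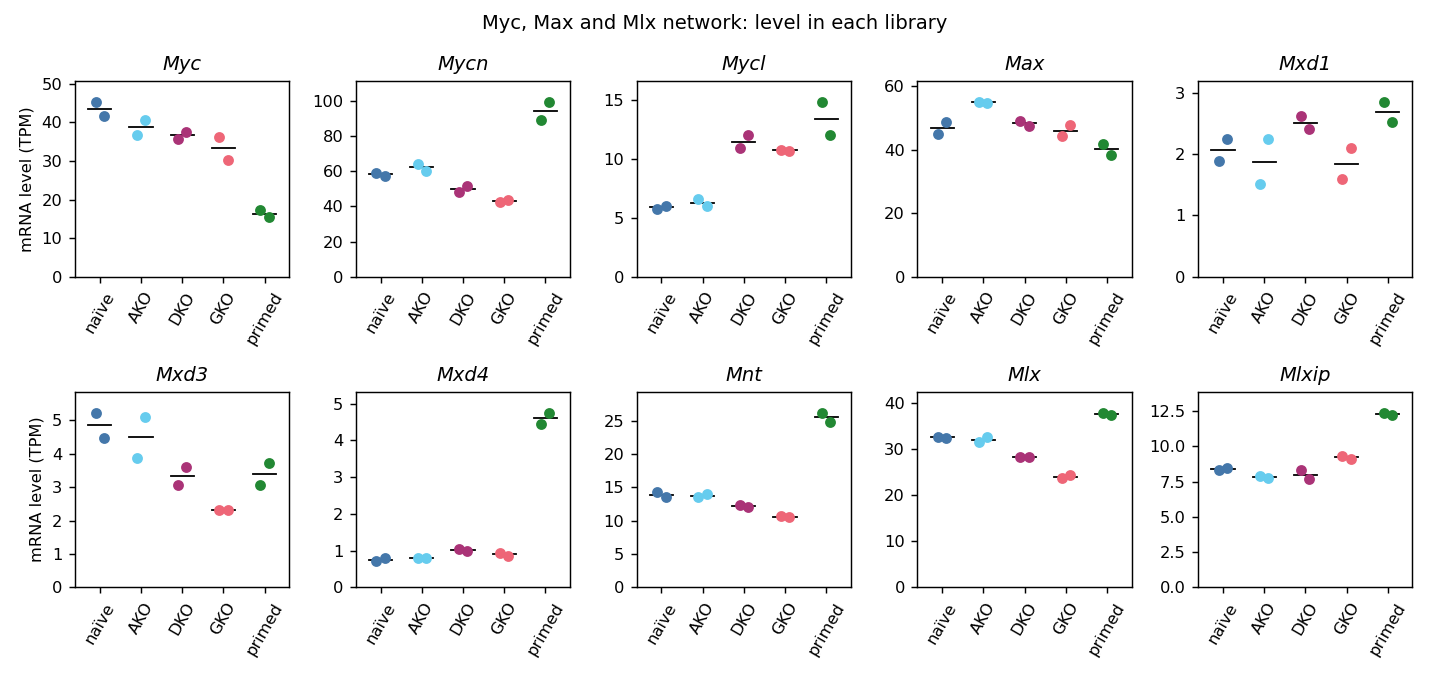
mRNA level of each member in TPM (vertical axes, from 0) in the 2 libraries of each line (points), with the mean of the line (bar). Mycl was higher in GKO and DKO while Myc, Mycn, Mxd3, Mnt and Mlx were lower in GKO than in naïve ESCs. Primed ESCs overlapped with no other line in Myc, Mycn, Max, Mxd4, Mnt, Mlx and Mlxip.

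The first question was how the network differed once glycogen synthase was lost. Of the 10 members, 6 passed the test in GKO against naïve ESCs (limma on log2(TPM + 1), adjusted p under 0.05 after Benjamini-Hochberg adjustment over 12060 genes), 1 higher and 5 lower. Of all genes tested, 51.7% passed in this comparison, 24.7% higher and 27.1% lower, so the share of members called was close to that of all genes, and the share lower was 5 of 10. The median change of the members was -0.23 against -0.01 for all genes. The Prkaa1 knockout alone gave no called member. Calls are given below as kept or lost over alternative fits, all at the same threshold, and a minimum log2 change of 1, set on top of it, left 0 members called in GKO, in DKO and in each comparison among the knockout lines.

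Myc, the gene of c-MYC, lies at chr15:61857227-61862223 (GRCm39, as all gene positions below) on the plus strand. It measured 45.3 and 41.8 TPM in naïve ESCs, 36.7 and 40.7 in AKO, 35.8 and 37.6 in DKO, 36.2 and 30.2 in GKO, with 17.2 and 15.4 in primed ESCs. The naïve libraries were the highest and overlapped with none of the others, while AKO, DKO and GKO overlapped with their neighbours in the order of the means. Myc fell by 0.38 on the log2 scale in GKO (SE 0.09, adjusted p = 0.00773 from limma, lower in both libraries). In DKO against naïve ESCs its change was -0.24 (SE 0.09, adjusted p = 0.0615), above the threshold. The GKO call was lost without GKO replicate 2 (adjusted p = 0.0601) and without naïve replicate 1 (adjusted p = 0.0601). It was also lost with each library centred on the gene's chromosome (-0.21, adjusted p = 0.108), the median of the 462 tested genes of chromosome 15 being -0.15 in GKO.

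Mycn, the gene of N-MYC (chr12:12986076-12992915, minus strand), measured 59.2 and 57.6 TPM in naïve ESCs, 64.3 and 60.5 in AKO, 48.2 and 51.4 in DKO, 42.8 and 43.8 in GKO, and highest, at 89.2 and 99.5, in primed ESCs. The lines followed one another with no overlap between any neighbours, from GKO at the lower end over DKO, naïve ESCs and AKO to primed ESCs. The change of Mycn against the same naïve libraries was -0.42 in GKO (SE 0.06, adjusted p = 0.000518) and -0.23 in DKO (SE 0.06, adjusted p = 0.0155). The GKO call was kept in all 20 alternative fits. The DKO call was lost without DKO replicate 1, naïve replicate 1 or naïve replicate 2, with quantile normalization and with no filter. Over the alternative fits the DKO change lay between -0.36 and -0.14.

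Mycl, the gene of L-MYC (chr4:122889408-122896282, plus strand), was the member that rose. It measured 5.75 and 6.01 TPM in naïve ESCs, 6.58 and 6.01 in AKO, 10.9 and 12.0 in DKO, 10.8 and 10.7 in GKO, with 14.8 and 12.0 in primed ESCs. Both lines without GYS1 stood above both lines with GYS1 on the naïve medium, and DKO and primed ESCs overlapped. The change was 0.77 in GKO (SE 0.10, adjusted p = 0.000225), a 1.83-fold higher mean. In DKO against AKO, which share no library with GKO and naïve ESCs, it was 0.77 as well (SE 0.10, adjusted p = 0.000285 from limma). Whether DKO was made from GKO is not stated, so these comparisons may not be independent. The call was kept in all 20 alternative fits of each comparison, though not with a minimum log2 change of 1.

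Summed over Myc, Mycn and Mycl, the family was at 107.8 ± 3.44 TPM (SD, n = 2) in naïve ESCs, 107.4 ± 0.232 in AKO, 97.9 ± 4.31 in DKO, 87.3 ± 3.59 in GKO and 124.1 ± 4.10 in primed ESCs. The 2 libraries of GKO, at 89.8 and 84.8 TPM, lay below all others. Mycl made up 5.46% ± 0.349 of this sum in naïve ESCs, 5.86% ± 0.357 in AKO, 11.7% ± 0.283 in DKO and 12.3% ± 0.413 in GKO. The share of Myc, in contrast, overlapped between GKO (40.3 and 35.7%) and naïve ESCs (41.1 and 39.6%). No exact permutation test (both directions) of 2 libraries against 2 can give a p below 0.333, so these sums and shares are given without a test.

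**Figure D2:**
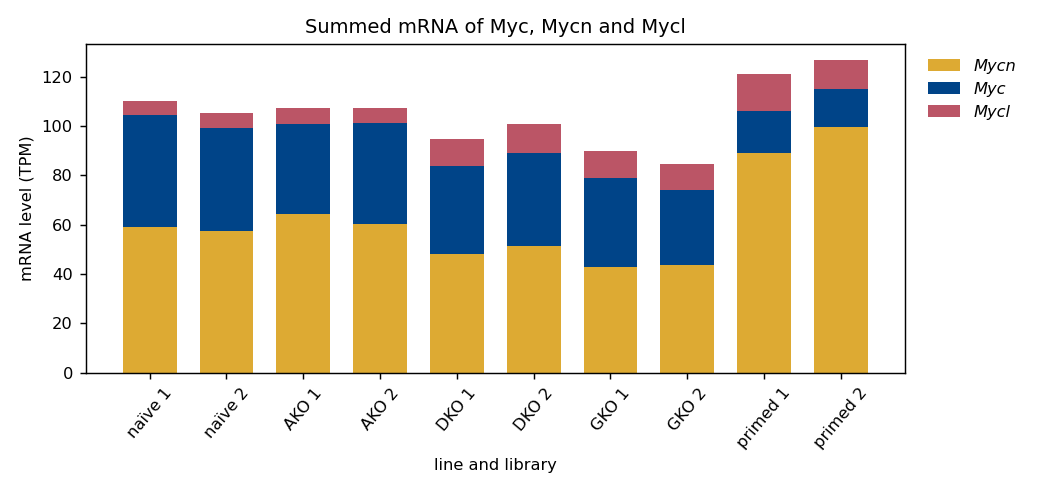
Level of Mycn, Myc and Mycl in TPM, stacked for each of the 10 libraries (horizontal axis), with the vertical axis from 0. The sum was lowest in the 2 GKO libraries (89.8 and 84.8 TPM), the Mycl part was larger in DKO, GKO and primed ESCs, and Mycn made up most of the sum in primed ESCs.

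Max, which encodes the shared partner (chr12:76984043-77009009, minus strand), changed little on the naïve medium. It measured 44.95 and 48.8 TPM in naïve ESCs, 55.0 and 54.8 in AKO, 49.2 and 47.5 in DKO, 44.2 and 47.6 in GKO, with 41.9 and 38.4 in primed ESCs. The libraries of GKO, naïve ESCs and DKO overlapped, and AKO was highest. Neither GKO (-0.03, SE 0.06, adjusted p = 0.713) nor DKO (0.04, SE 0.06, adjusted p = 0.596) passed the test against naïve ESCs.

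Among the MAX partners that repress, Mxd3 (chr13:55472981-55477908, minus strand), known from cells in S phase, measured 5.23 and 4.47 TPM in naïve ESCs, 3.88 and 5.11 in AKO, 3.07 and 3.61 in DKO, 2.33 and 2.31 in GKO, with 3.06 and 3.73 in primed ESCs. GKO was below every other library, while naïve ESCs overlapped with AKO and DKO with primed ESCs. Mxd3 fell by 0.81 in GKO (SE 0.13, adjusted p = 0.000867), a 2.09-fold lower mean. Its change in DKO was -0.43 (SE 0.13, adjusted p = 0.0239 from limma), a call lost without DKO replicate 1 or naïve replicate 1 and with no filter.

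Mnt (chr11:74721338-74736836, plus strand), whose product is the most widely expressed MAX-binding repressor, measured 14.3 and 13.5 TPM in naïve ESCs, 13.5 and 14.01 in AKO, 12.3 and 12.0 in DKO, 10.6 and 10.6 in GKO, with 26.2 and 24.8 in primed ESCs. AKO overlapped with naïve ESCs and no other neighbours did. Mnt fell by 0.36 in GKO (SE 0.06, adjusted p = 0.000787), a call kept in all 20 alternative fits. Its change in DKO was -0.18 (SE 0.06, adjusted p = 0.0280), and this call was lost without either DKO or either naïve library (adjusted p between 0.0509 and 0.177) and after chromosome centring.

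Mxd1 (chr6:86624024-86646218, minus strand) and Mxd4 (chr5:34331227-34345240, minus strand), both known from differentiating cells, were low on the naïve medium. Mxd1 measured 1.88 and 2.25 TPM in naïve ESCs, 1.51 and 2.25 in AKO, 2.62 and 2.41 in DKO, 1.59 and 2.105 in GKO, with 2.85 and 2.53 in primed ESCs, and passed the test in no comparison. Mxd4 measured 0.712 and 0.788 TPM in naïve ESCs, 0.810 and 0.800 in AKO, 1.04 and 0.996 in DKO, 0.942 and 0.851 in GKO, with 4.45 and 4.76 in primed ESCs. Its rise in DKO (0.21, SE 0.07, adjusted p = 0.0478 from limma) lost its call without any 1 of the naïve, AKO, DKO or GKO libraries. The same call was lost with median-ratio scaling, quantile normalization and the replicate block. That of its rise in primed ESCs was lost in none of 18 alternative fits. Mxd4 reached 1 TPM in 2 libraries through primed ESCs alone, so that it entered the test through the line where it was high. The 4 repressors together summed to 21.6 ± 0.787 TPM (SD, n = 2) in naïve ESCs, 20.9 ± 1.75 in AKO, 19.02 ± 0.0184 in DKO, 15.7 ± 0.257 in GKO and 36.2 ± 0.511 in primed ESCs. The ratio of the Myc family to these 4 repressors was 4.98 and 5.01 in naïve ESCs, 5.46 and 4.84 in AKO, 4.98 and 5.31 in DKO, 5.80 and 5.34 in GKO, with 3.32 and 3.55 in primed ESCs, with GKO overlapping AKO. The order depended on the genes summed. With Mxi1, the remaining Mxd gene, which is no member, the ratio was 2.51 and 2.52 in naïve ESCs, 2.58 and 2.47 in AKO, 3.00 and 3.12 in DKO, 3.01 and 2.64 in GKO, with 2.62 and 2.67 in primed ESCs, which then lay above naïve ESCs.

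On the Mondo side, Mlx (chr11:100978080-100983043, plus strand) measured 32.7 and 32.5 TPM in naïve ESCs, 31.4 and 32.6 in AKO, 28.3 and 28.3 in DKO, 23.7 and 24.3 in GKO, with 37.9 and 37.3 in primed ESCs. The 2 libraries of a line lay within 1 TPM of each other in all lines but AKO, and AKO alone overlapped with a neighbour, naïve ESCs. The change of Mlx was -0.42 in GKO (SE 0.04, adjusted p = 7.2e-05) and -0.20 in DKO (SE 0.04, adjusted p = 0.00517), and both calls were kept in all 20 alternative fits, though not with a minimum log2 change of 1. Mlxip (chr5:123532794-123595995, plus strand), the partner of Mlx, measured 8.33 and 8.48 TPM in naïve ESCs, 7.89 and 7.79 in AKO, 8.31 and 7.66 in DKO, 9.35 and 9.14 in GKO, with 12.4 and 12.3 in primed ESCs. In GKO both libraries were above the naïve ones, and the change of 0.12 (SE 0.06, adjusted p = 0.120) did not pass. After centring on chromosome 5 it came to 0.21 and passed (adjusted p = 0.0232 from limma). With centring 2 members were thus called higher and 4 lower in GKO. Of all 12060 genes, 5652 were called there, 53.2% of the 5652 higher.

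**Figure D3:**
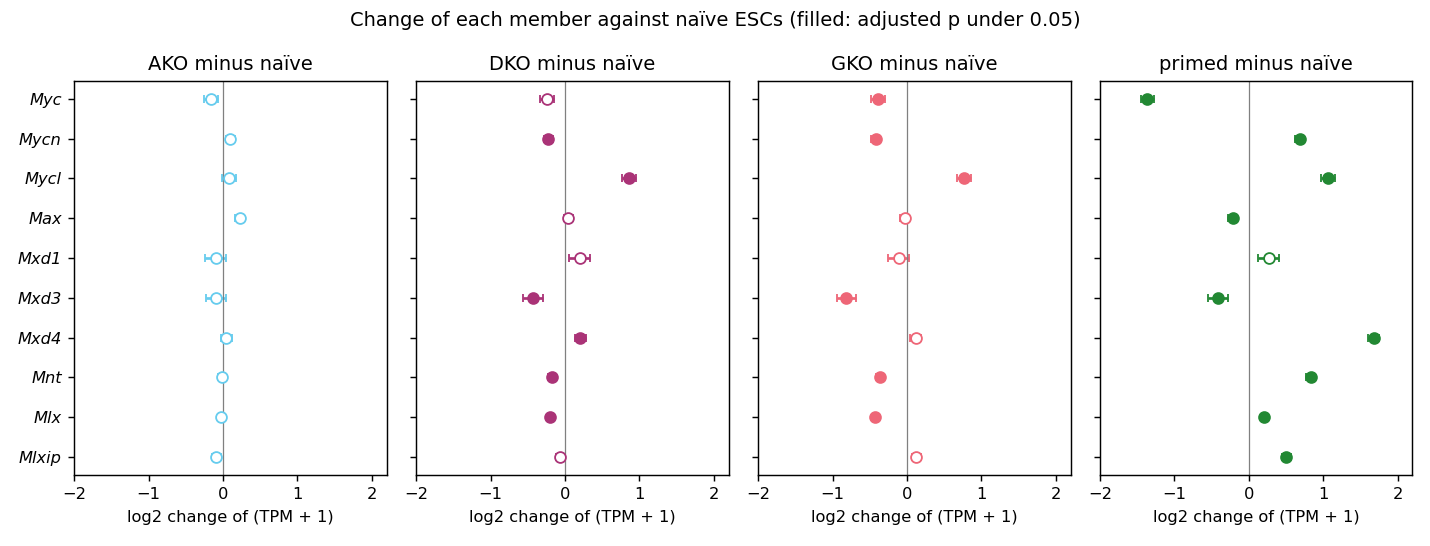
Change of each member against naïve ESCs (horizontal axes, log2 of TPM + 1) in AKO, DKO, GKO and primed ESCs, with the standard error from limma (bars) and filled points where the adjusted p was under 0.05. All 4 panels share the 2 naïve libraries, AKO has no filled point, and Mycl is the member with the highest value in DKO and GKO.

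AKO differed little from naïve ESCs throughout. In this comparison 0 of 10 members passed the test in limma, against 0.224% of all genes (27 of 12060). At an unadjusted p under 0.05, 1 member passed, Max, with a change of 0.22 (SE 0.06, unadjusted p = 0.00577, adjusted p = 0.229, higher in both libraries). The 400 tested genes of chromosome 12, where Max lies, had a median of 0.16 in this comparison. The changes of the members lay between -0.17 (Myc) and 0.22 (Max).

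DKO against naïve ESCs gave 6 called members, 2 higher (Mycl and Mxd4) and 4 lower (Mycn, Mxd3, Mnt and Mlx). Of all genes 46.0% passed there, 21.7% higher and 24.3% lower. The effect of GYS1 loss in cells with the Prkaa1 knockout, DKO against AKO, gave 5 called members (background 46.3% of all genes, with 22.4% higher and 23.9% lower). Mycl was higher, and the changes of the others were -0.32 for Mycn (SE 0.06, adjusted p = 0.00279), -0.18 for Max (SE 0.06, adjusted p = 0.0402), -0.17 for Mnt (SE 0.06, adjusted p = 0.0385) and -0.17 for Mlx (SE 0.04, adjusted p = 0.0102). Those of Mycl and Mycn were called in all 20 alternative fits, though not with a minimum log2 change of 1. Those of Max and Mnt were lost without any 1 of the AKO or DKO libraries and with chromosome centring. The Max call was also lost with no filter, no trend, quantile normalization and the replicate block. The Mnt call was also lost without any 1 of the naïve or GKO libraries and with only the compared lines in the fit. That of Mlx was lost without AKO replicate 2. The counts in both comparisons depended on single libraries, with 2 to 7 members called in DKO against naïve ESCs and 3 to 7 in DKO against AKO when each library was left out in turn. The lowest counts in the former were 2 without DKO replicate 1 or naïve replicate 1 and 3 without naïve replicate 2, and in the latter 3 without AKO replicate 2 or either DKO library.

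Whether the effect of GYS1 loss differed with the Prkaa1 knockout was tested as an interaction, GKO minus naïve ESCs less DKO minus AKO, for which 25.8% of all genes passed. Of the members, Mlx alone passed, with a larger fall where Prkaa1 was not knocked out (-0.42 against -0.17, difference -0.25, SE 0.06, adjusted p = 0.0158). The difference for Mycl was -0.00 (SE 0.14, adjusted p = 0.994), and that for Myc -0.31 (SE 0.13, adjusted p = 0.115). The Mlx call was lost without AKO replicate 1, GKO replicate 1 or either naïve library (adjusted p between 0.0562 and 0.0648).

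Directly compared, GKO and DKO differed in 5 members, with 43.5% of all genes called, 21.2% higher and 22.4% lower in GKO. Lower in GKO were Mycn (-0.20, SE 0.06, adjusted p = 0.0299), Mxd3 (-0.38, SE 0.13, adjusted p = 0.0401), Mnt (-0.18, SE 0.06, adjusted p = 0.0300) and Mlx (-0.23, SE 0.04, adjusted p = 0.00283). Mlxip was higher in GKO by 0.19 (SE 0.06, adjusted p = 0.0322). Leaving out 1 library gave 1 to 5 called members, with 1, Mlx, left without DKO replicate 2 or either GKO library and 3 without DKO replicate 1 or naïve replicate 1. Mlx was called in all 20 alternative fits. The Mycn difference came to -0.04 (adjusted p = 0.663) after centring on chromosome 12, whose tested genes had a median of -0.12.

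Mxd3 and Mlx changed more in GKO (-0.81 and -0.42), but the largest changes of the network against naïve ESCs were in primed ESCs. Of the 10 members 9 passed, 6 higher and 3 lower (5 and 3 of 9 without Mxd4, which passed the filter through primed ESCs alone), where 80.0% of all genes passed, 37.4% higher and 42.5% lower. The share of members called was thus near that of all genes. Myc fell by 1.36 (SE 0.09, adjusted p = 9.13e-07), a 2.67-fold lower mean, while Mycn rose by 0.68 (SE 0.06, adjusted p = 6.25e-06) and Mycl by 1.06 (SE 0.10, adjusted p = 6.74e-06). Mycn therefore made up 73.6 and 78.4% of the Myc family mRNA in primed ESCs, against 53.7 and 54.6% in naïve ESCs. Of the repressors, Mxd4 was 6.14-fold higher (1.68, SE 0.07, adjusted p = 5.19e-08 from limma), its rise being favoured by that filter. Mnt was 1.83-fold higher (0.83, SE 0.06, adjusted p = 8.91e-07 from limma). Mxd3 fell by 0.41 (SE 0.13, adjusted p = 0.0154 from limma), a call lost without naïve replicate 1 or primed replicate 1 and with no filter. Mlxip rose by 0.50 (SE 0.06, adjusted p = 4.67e-05). The smaller changes of Mlx (0.20, SE 0.04, adjusted p = 0.00192) and Max (-0.22, SE 0.06, adjusted p = 0.00907) depended on the scaling. Mlx turned to -0.12 after centring on chromosome 11, whose 962 tested genes had a median of 0.30 in primed ESCs. Max came to -0.03 (adjusted p = 0.651) with quantile normalization and to -0.16 without naïve replicate 2, and lost its call in both. After centring on chromosome 12 it came to -0.41 (adjusted p = 0.000157).

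For the 3 members that varied most over the naïve, AKO, DKO and GKO lines, the genes most like them over these 8 libraries were sought among 8082 genes of at least 5 TPM. Those most like Mycl were 1810037I17Rik, Irf2bpl and Ctsz (Pearson r = 0.995, 0.995 and 0.995). Those most like Mxd3 were Raver1, Daxx and U2af2 (r = 0.985, 0.984 and 0.983), and those most like Mycn were Ss18l2, Ywhaq and Slc25a1 (r = 0.996, 0.995 and 0.994). These are the highest of many correlations over libraries that share 4 lines, and are given as a description.

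Other proteins of the network and the subunits that MAX and MGA share in PRC1.6 made a list of 11 genes, all tested. In GKO 3 rose and 4 fell, where 51.7% of all genes were called, with a median of -0.05 against -0.01 for all genes. After chromosome centring 2 rose and 3 fell, with a median of 0.05. With centring 5652 of all 12060 genes were called, and the median of all was 0.01. Wdr5, a histone methylation adaptor that also binds MYC, was at 169 and 164 TPM in GKO against 118 and 117 in naïve ESCs, and rose by 0.50 (SE 0.04, adjusted p = 2.78e-05). Cbx3, a heterochromatin protein, rose by 0.25 (SE 0.06, adjusted p = 0.00711), a call lost after chromosome centring and without GKO replicate 1 (adjusted p = 0.0505) or naïve replicate 1 (adjusted p = 0.0547). Pcgf6, the subunit that defines PRC1.6, was at 32.3 and 33.4 TPM in GKO against 53.4 and 54.9, and fell by 0.70 (SE 0.05, adjusted p = 1.35e-05). Mxi1, the remaining Mxd gene (Mxd2), fell by 0.45 (SE 0.09, adjusted p = 0.00251), and this came to -0.03 after centring on chromosome 19, whose 393 tested genes had a median of -0.40. The next genes, Mga and Mlxipl, were picked after their values were seen. Mga, which encodes the MAX partner of PRC1.6, was at 31.6 and 30.9 TPM in GKO, 33.6 and 31.6 in DKO, 39.8 and 41.8 in naïve ESCs and 18.5 and 17.2 in primed ESCs, and fell by 0.37 in GKO (SE 0.05, adjusted p = 0.000454). Mlxipl (ChREBP), the liver-type partner of MLX, was at 2.19 and 1.97 TPM in GKO against 0.575 and 0.873 (change 0.84, SE 0.18, adjusted p = 0.00483). In primed ESCs 3 of the list rose and 8 fell (80.0% of all genes called), led by Wdr5 (-1.42) and Pcgf6 (-1.30) among the falls and by Ring1 (1.21) and E2f6 (0.62) among the rises of genes above 5 TPM.

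Of the germline genes that MGA and MAX are known to keep silent in ESCs, Ddx4 and Zcwpw1 rose in GKO and Dazl fell. Of 12 listed genes 11 were tested (not Tex101), but Stra8 and Meioc reached 1 TPM in 2 libraries through GKO alone, where they are high. Of the other 9, 4 rose and 1 fell in GKO, where 51.7% of all genes were called, with a median of 0.29 against -0.01 for all genes. With Stra8 and Meioc the counts were 6 and 1. Ddx4, a germ cell RNA helicase, measured 2.68 and 2.17 TPM in naïve ESCs, 2.59 and 2.84 in AKO, 3.00 and 2.57 in DKO, 10.4 and 9.53 in GKO, with 0.0450 and 0.109 in primed ESCs. It stood out in both GKO libraries alone and rose by 1.68 (SE 0.10, adjusted p = 5.45e-06), a 4.12-fold higher mean. Zcwpw1, a meiotic histone reader, measured 2.17 and 2.68 TPM in naïve ESCs, 2.26 and 2.25 in AKO, 5.35 and 5.12 in DKO and 8.32 and 7.90 in GKO, and rose by 1.41 (SE 0.10, adjusted p = 1.31e-05). The other rises were those of Sycp3 (0.85) and Stk31 (0.59), and, favoured by the filter, of Stra8 (1.18) and Meioc (0.54). Dazl, an RNA-binding protein of germ cells, stood at 6.89 and 7.43 TPM in naïve ESCs, 7.75 and 8.29 in AKO, 3.30 and 3.42 in DKO and 3.28 and 3.38 in GKO, and fell by 0.91 (SE 0.07, adjusted p = 2.16e-05). Stra8 and Meioc stayed below 3 TPM in every library.

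In DKO 2 of the 11 tested germline genes rose and 5 fell against naïve ESCs. Of all genes 46.0% were called there, 21.7% higher and 24.3% lower. In GKO against DKO, 8 of the 9 genes other than Stra8 and Meioc were higher and 0 lower, where 21.2% of all genes were higher and 22.4% lower. Sycp3, a component of the synaptonemal complex, was at 6.39 and 6.23 TPM in GKO, 1.46 and 1.59 in DKO and 3.04 and 3.08 in naïve ESCs. After chromosome centring, 6 of the 11 rose and 1 fell in GKO against naïve ESCs. The 11 include Stra8 and Meioc, whose rises the filter favoured, so this count overstates how stable the rises were. Without these genes, 4 of 9 rose and 1 fell before centring. Of all genes, 5652 were called with centring, 53.2% of them higher, against 6241 without it. In primed ESCs 8 of the 11 fell and 1 rose, where 80.0% of all genes were called, 37.4% higher and 42.5% lower. The rise was that of Tdrkh, from 1.07 and 1.16 to 12.5 and 15.7 TPM, and Dazl was listed at 0 in both primed libraries. The E-box was found in the promoter windows of 6 of the 12 listed genes. It was in 8.09% of all symbols with a window and 12.1% of the tested symbols with one. The stretch of Ddx4 is shown as the one that changed most (chr13:112652311-112652366, minus strand, E-box from 29 bases before the start site).
Ddx4: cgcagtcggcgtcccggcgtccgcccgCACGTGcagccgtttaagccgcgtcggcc
The 6 were Ddx4, Stk31, Sycp3, Slc25a31, Taf7l and Mael. The first 3 were among the rises in GKO and the others did not pass there.

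**Figure D4:**
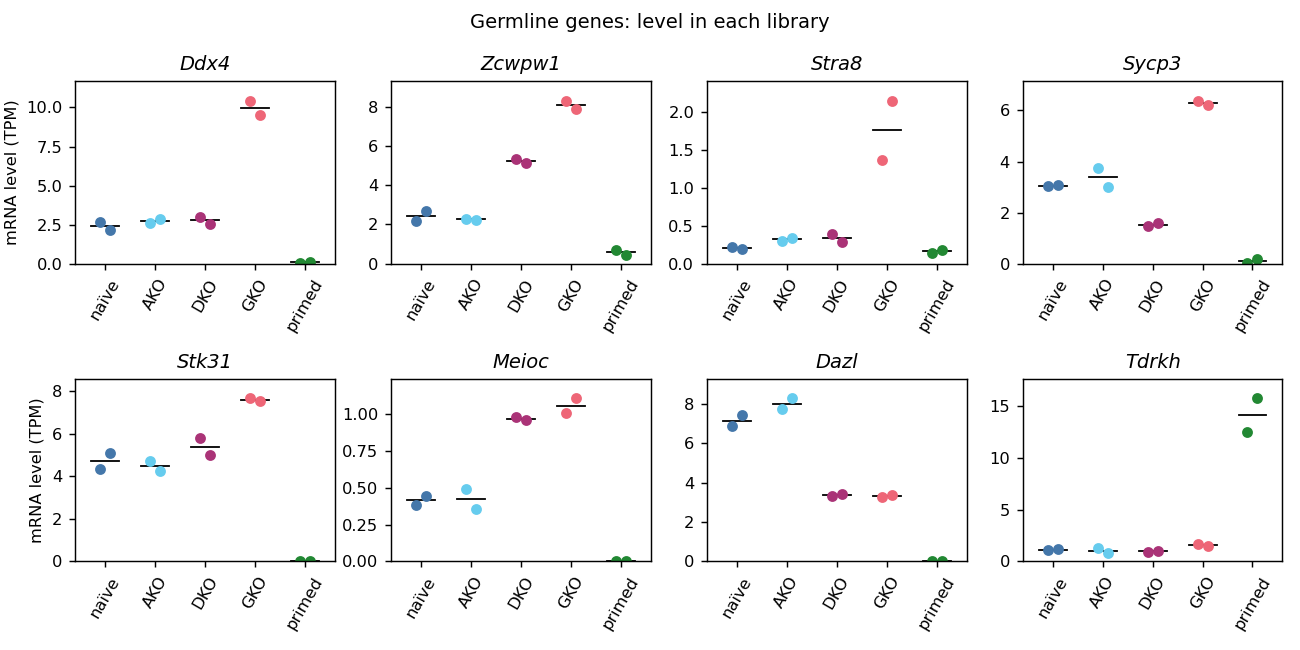
Level of 8 germline genes in TPM (vertical axes, from 0) in the 2 libraries of each line (points) with the mean of the line (bar). Ddx4, Stra8, Sycp3 and Stk31 were highest in GKO, Zcwpw1 and Meioc were higher in DKO and GKO than in naïve ESCs, Dazl was lower in both, and Tdrkh was highest in primed ESCs.

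Target genes of MYC in growth (ribosome production, nucleotide and polyamine synthesis, the cell cycle) made a list of 58 genes, all tested. In GKO 24 fell, 5 rose and 29 did not pass, with a median of -0.17 against -0.01 for all genes. The share called was near that of all genes (51.7%), of which 27.1% fell and 24.7% rose. In DKO 21 fell and 5 rose (median -0.12, 46.0% of all genes called), and in AKO 0 of 58 passed. Slc29a2, a nucleoside transporter, was at 12.1 and 11.7 TPM in GKO against 25.4 and 26.6 in naïve ESCs and fell by 1.06 (SE 0.10, adjusted p = 4.73e-05). Wdr74, of ribosome assembly, fell by 0.91 (SE 0.06, adjusted p = 7.35e-06). Both lie on chromosome 19 and were still lower after its centring (-0.64 and -0.49). Gnl3 (nucleostemin) and Mcm4, of the replicative helicase, rose by 0.44 (SE 0.11, adjusted p = 0.00729) and 0.18 (SE 0.05, adjusted p = 0.0172). Gnl3 lies on chromosome 14, whose tested genes had a median of 0.47 in GKO, and came to -0.04 after centring. The Gnl3 call was also lost without naïve replicate 2 (adjusted p = 0.0554), and that of Mcm4 without either naïve or either GKO library (0.0555 to 0.0858). Odc1, the rate-limiting enzyme of polyamine synthesis and a classical MYC target, was chosen after its values were seen. It was at 434 and 426 TPM in GKO, 415 and 417 in DKO, 819 and 842 in AKO and 742 and 741 in naïve ESCs, and fell by 0.78 in GKO (SE 0.08, adjusted p = 6.24e-05).

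All 5 list genes on chromosome 19 were among the 24 falls in GKO. With chromosome centring 5652 of all 12060 genes were called, and 22 of the list fell and 6 rose. With 1 library left out, 18 to 39 were called in either direction, with 18 or 19 when a GKO or a naïve library was left out. In primed ESCs 44 of 58 fell and 8 rose, with a median of -0.51 against -0.05 for all genes, of which 42.5% fell and 37.4% rose. Las1l, of ribosomal RNA processing, fell by 1.54 (SE 0.04, adjusted p = 3.36e-09) and Slc29a2 fell by 1.37 (SE 0.10, adjusted p = 1.44e-06). Ccnd2 (cyclin D2) rose from 1.03 and 0.511 TPM to 38.3 and 32.2, and Apex1, of base excision repair, rose by 0.60 (SE 0.09, adjusted p = 0.000273), the latter not called after centring on chromosome 14. The E-box was found in the windows of 16 of the 50 list genes that had a window. It was in 8.09% of all symbols with one and 12.1% of the tested symbols with one.

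**Figure D5:**
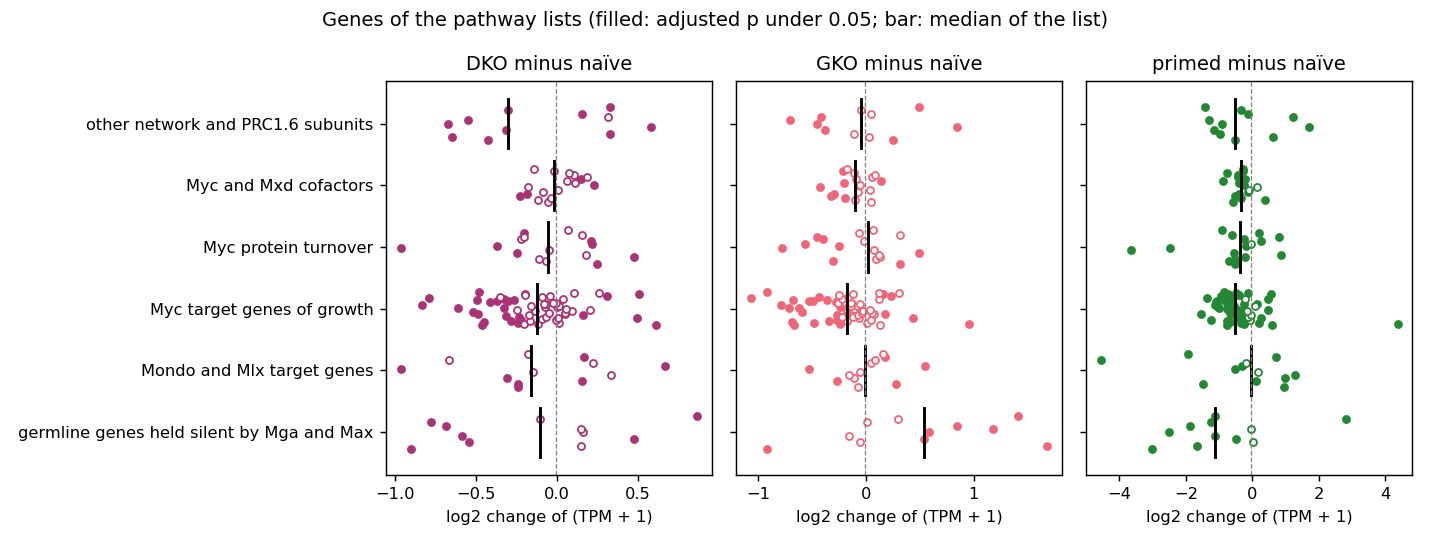
Change of each gene of the 6 lists (points) in DKO, GKO and primed ESCs against naïve ESCs (horizontal axes, log2 of TPM + 1, each panel with its own range), filled where the adjusted p was under 0.05. The bar is the median of the list and the dashed line that of all 12060 genes. The growth targets lie to the left in all panels (medians -0.12, -0.17 and -0.51), and the germline list to the right in GKO, where its median of 0.54 includes Stra8 and Meioc and is 0.29 without them.

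Targets of MondoA, ChREBP and MLX showed no common direction in GKO. Of 13 listed genes 12 were tested (not Gpd1), 3 rose and 2 fell in GKO, where 51.7% of all genes were called, and the median was -0.00. Txnip, the inhibitor of glucose uptake that is the best known MondoA target, measured 49.8 and 52.5 TPM in naïve ESCs, 53.1 and 56.5 in AKO, 41.8 and 48.7 in DKO, 59.3 and 54.9 in GKO, with 11.5 and 13.7 in primed ESCs. Its change in GKO (0.16, SE 0.09, adjusted p = 0.195) did not pass. Its paralog Arrdc4 rose by 0.28 in GKO (SE 0.06, adjusted p = 0.00474), to 24.3 and 22.5 TPM from 19.2 and 19.1, and was at 16.2 and 15.9 in DKO. Tkt, of the pentose phosphate pathway, rose by 0.18 in GKO (SE 0.05, adjusted p = 0.0153) but came to -0.30 after centring on chromosome 14, and the call was lost without GKO replicate 1 or either naïve library (adjusted p between 0.0581 and 0.0943). Me1 (malic enzyme) fell by 0.52 (SE 0.04, adjusted p = 1.92e-05) and Elovl6, which elongates fatty acids, fell by 0.27 (SE 0.05, adjusted p = 0.00134). In primed ESCs 5 rose and 5 fell (80.0% of all genes called). Txnip fell by 1.95 (SE 0.09, adjusted p = 9.38e-08) and Scd1, the stearoyl-CoA desaturase, fell by 4.55 (SE 0.29, adjusted p = 6.52e-07), while Khk (1.29) and Fasn (0.98) rose.

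The site of Txnip is shown because MLX acts on paired E-box-like hexamers, here searched as CACGNG followed after 5 bases by another CACGNG, on both strands. This motif occurred in 0.0487% of all windows (16 of 32851) and Txnip held 1 of them, at chr3:96557845-96557915 (plus strand, first base 85 before the start site), with the hexamers in capitals. The window of Arrdc4 held no such pair. Its lone CACGTG, which 7.15% of all windows hold, is shown beside it at chr7:68749399-68749458 (minus strand, 193 bases before the start site).
Txnip: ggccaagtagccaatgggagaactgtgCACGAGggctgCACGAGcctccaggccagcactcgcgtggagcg
Arrdc4: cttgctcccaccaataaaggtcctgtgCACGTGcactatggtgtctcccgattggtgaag

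Cofactors of MYC and of the MXD repressors gave 7 calls in GKO, where 1 of 17 rose and 6 fell, with a median of -0.10 and 51.7% of all genes called. Hcfc1, a MYC-binding host cell factor, fell by 0.32 (SE 0.05, adjusted p = 0.000484). Kat5 (TIP60), an acetyltransferase, fell by 0.42 (SE 0.07, adjusted p = 0.00114) and Ruvbl1, a helicase of the same complex, rose by 0.14 (SE 0.04, adjusted p = 0.0206). After chromosome centring both changed sign and lost their calls (0.00 and -0.01). There 4 of the 17 were called, against 5652 of all 12060 genes. The Ruvbl1 call was also lost without GKO replicate 1 or either naïve library (adjusted p between 0.0822 and 0.144), and 4 of the list were called without naïve replicate 2. In primed ESCs, where 80.0% of all genes were called and 42.5% fell, 14 of 17 fell and 1, Bptf, rose (0.37, a call lost after chromosome centring), led by Ruvbl1 (-0.88) and Sin3b (-0.75).

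Genes that control the stability of MYC proteins gave 2 rises and 6 falls among 16 in GKO, with a median of 0.02 and a share called near that of all genes (51.7%). After chromosome centring 5 rose and 6 fell, with a median of 0.16. With centring 5652 of all 12060 genes were called, and the median of all was 0.01. Huwe1, a ubiquitin ligase for MYC and MYCN, was at 147 and 142 TPM in GKO, 102 and 102 in naïve ESCs, 105 and 107 in AKO and 89.9 and 82.8 in DKO, and rose by 0.49 (SE 0.05, adjusted p = 7.72e-05). Aurka, which stabilizes MYCN, rose by 0.31 (SE 0.04, adjusted p = 0.000335). Pim3, a kinase of the family that stabilizes MYC, measured 109 and 110 TPM in naïve ESCs, 99.6 and 99.2 in AKO, 53.9 and 57.3 in DKO, 63.7 and 63.7 in GKO, with 18.3 and 19.2 in primed ESCs. It fell by 0.77 in GKO (SE 0.04, adjusted p = 4.73e-06), and Ppp2r5c, a PP2A regulatory subunit, fell by 0.57 (SE 0.07, adjusted p = 0.000241). In primed ESCs 11 fell and 4 rose (80.0% of all genes called), with Pim1 from 48.0 and 44.5 to 2.82 and 2.70 TPM, Pim3 lower (-2.49), and Gsk3b (0.87) and Trim32 (0.79) higher on the log2 scale.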

How the data were processed

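RNA was sequenced from 5 mouse ESC lines, 2 libraries each, grouped by the titles of the sample records. The authors trimmed the reads, aligned them with STAR, estimated expression with RSEM and deposited TPM per gene. Their methods name GRCm39, while the submitters' processing notes list GRCm38 and GRCh38 with Trim Galore 0.6.6, STAR 2.7.9a and RSEM 1.3.3. The records describe an Illumina kit and sequencer, whereas the methods describe an MGI kit for J1, GKO and PJ1. Read depth cannot be recovered from TPM.

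From the deposited TPM, log2(TPM + 1) was fitted with limma 3.58.1 in R 4.3.3 (1 fit, a mean per line, intensity trend), on the 12060 genes that reached 1 TPM in 2 or more libraries. P-values were adjusted by Benjamini-Hochberg within each comparison, with a threshold of 0.05. A fold change on this scale understates that of low genes. GKO, DKO, AKO and primed ESCs share the naïve libraries as control. Nothing says that the libraries of a line are separate cultures, so p-values measure only the spread between these samples. The procedure was tested on simulated data.

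The members and lists were chosen with earlier results of these data known. All members were reported, and from each list up to 2 rises and 2 falls, the largest among called genes of at least 5 TPM in the higher line, in GKO and in primed ESCs against naïve ESCs. Gene positions are from GENCODE M39 and promoters from RefSeq. Alternatives were pseudocount 0.1, no filter, median-ratio scaling, a mean of 5 TPM, no trend, quantile normalization, a minimum log2 change of 1, a replicate block, fewer lines in the fit, chromosome centring and each library left out.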

Additional observations from a re-analysis of the deposited data

Results flagged for a closer look

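The following genes passed the test of the interaction (GKO minus naïve ESCs, less DKO minus AKO, limma, adjusted p under 0.05). Of all genes tested, 25.8% passed it. Values are log2 differences. Genes other than the members had been named for their changes in GKO against naïve ESCs. That difference is itself part of the interaction, so large values were favoured for these genes and give no independent support. Of the 10 members Mlx passed, with -0.25 (SE 0.06, adjusted p = 0.0158). Of the germline genes named, Ddx4 gave 1.66 (SE 0.14, adjusted p = 0.000162), Sycp3 1.64 (SE 0.14, adjusted p = 0.000164) and Zcwpw1 0.48 (SE 0.14, adjusted p = 0.0392). Stra8 gave 1.16 (SE 0.18, adjusted p = 0.00200), but reached 1 TPM in the 2 GKO libraries alone and was tested only for that reason, so its value is no support for a difference. Of the other named genes, Huwe1 gave 0.78, Cbx3 0.73, Arrdc4 0.51, Me1 0.37 and Wdr5 0.29, and Ppp2r5c gave -0.61, Elovl6 -0.39 and Wdr74 -0.31. Huwe1 rose in GKO against naïve ESCs (0.49) and was lower in DKO against AKO (-0.29), and Cbx3 did likewise (0.25 and -0.48). Me1 fell in both comparisons, by 0.52 and by 0.89.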

How the results depend on the processing

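Over the called changes of the members and that of Myc in DKO, 557 alternative fits left the outcome as it was. Myc in DKO stayed uncalled in 14 of these. Another 81 fits lost the call, 6 gained it (Myc in DKO) and 1 reversed the sign.
With a minimum log2 change of 1, 433 of all genes and 0 members were called in GKO against naïve ESCs, 357 and 0 in DKO, 1 gene in AKO, 3355 and 3 in primed ESCs, 323 and 0 in GKO against DKO, 375 and 0 in DKO against AKO, and 349 and 0 in the interaction. In AKO, the 27 called genes became 11 with chromosome centring (9.09% of them higher, against 29.6%), 17 with a mean of 5 TPM, 54 with no filter, 0 with only the lines compared, 131 without primed libraries, 13 with pseudocount 0.1 and 8 with the replicate block. Members called in GKO against DKO were 3 with no filter and 3 with quantile normalization, and in DKO against AKO 3 with chromosome centring. With 1 library left out, called genes ranged from 4581 to 7290 in GKO, 3983 to 6612 in DKO, 1 to 126 in AKO, 8805 to 9616 in primed ESCs, 3540 to 6451 in GKO against DKO, 4100 to 6660 in DKO against AKO and 1944 to 4500 in the interaction, and called members from 5 to 6, 2 to 7, 0 to 0, 8 to 9, 1 to 5, 3 to 7 and 0 to 2 in the same order. A line left with 1 library is assumed to vary like the others. Chromosome centring turned Mlx in primed ESCs to -0.12, and in GKO Ruvbl1 to -0.0136, Kat5 to 0.00176, Gnl3 to -0.0406 and Tkt to -0.30. The cause was not tested. With a mean of 5 TPM, 0 germline genes were tested.
Same-numbered libraries did not deviate together (correlations from -0.128 to 0.0780). This shows no strong shift shared by number, but it cannot tell whether same-numbered libraries were prepared together. With the replicate block, 6046 of all genes and 6 members were called in GKO, and 5382 and 5 in DKO, with Mxd4 lost there. The germline counts without Stra8 and Meioc and the ratio with Mxi1 were added after the data were seen. With DKO numbers crossed, added after the data were seen because naïve and DKO correlated at -0.116, 5477 were called. The TPM tables give no depth, and with 2 libraries per line small changes rest on single libraries.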
